A study of Homo sapiens with 4 samples.

Results

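Protocadherins were examined in RNA-seq data from SK-N-SH cells, an established human neuroblastoma cell line. The members were the alpha, beta, gamma and non-clustered protocadherins of the deposited transcript count table whose symbol fits a rule. The rule takes PCDH, PCDHA, PCDHB, PCDHGA, PCDHGB or PCDHGC followed by a number, and *PCDHAC1* and *PCDHAC2*. *PCDH11X*, a non-clustered protocadherin of the table, falls outside it. The symbol rule matched 66 genes, of which 3 that the annotation types as pseudogenes (*PCDHA14*, *PCDHB17* and *PCDHB18*) were left out. This gave 63 members of 57820 genes in the table: 15 of the alpha cluster, 16 of the beta cluster, 21 of the gamma cluster and 11 outside the clusters. The counts of all transcripts of a gene were summed, so the 140 listed transcripts of the members, of which 81 held counts, were read as 63 gene values.

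The study compared cells transduced with a recombinant lentivirus carrying the lncRNA *RP5-998N21.4* under the EF1a promoter (*RP5-998N21.4* OE, 2 libraries) with cells transduced with the same kind of vector without an insert (vector control, 2 libraries). Both conditions therefore share the transduction, and the genotype label of the control reads wild type. The control libraries are titled WT, while their treatment label names the empty vector, which was followed here. Nothing in the labels says that the 2 libraries of a condition came from separate cultures, so every p-value below measures the spread between these libraries, which may be technical. Time after transduction and the number of clones are not given in the sources used here.

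Protocadherins are the largest group within the cadherin superfamily of calcium-dependent adhesion proteins. The clustered genes lie side by side on chromosome 5 in 3 arrays. In the alpha and gamma arrays each variable exon has its own promoter and is spliced to the same constant exons, which encode a shared cytoplasmic tail, whereas the beta genes are mostly single-exon genes without constant exons. A neuron expresses a subset of these genes, chosen by promoter use that involves CTCF, cohesin and DNA methylation, and the resulting mixture of proteins at the cell surface serves self-recognition of its branches. The non-clustered protocadherins lie apart from the arrays and act in adhesion, axon growth and synapse formation.

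The promoters show how the clustered genes are related and where they differ. RefSeq promoters (GRCh38.p14, 250 bases before to 50 after the start site) were found for 55 of the 63 members, 46 of them clustered. The 9-base word found in the most beta promoters was GGTGGCGCT, on the strand of the gene in 13 of 14 beta promoters, between positions -84 and -2 from the start site. In the alpha cluster it was GATGTCGCT, in 9 of 13 promoters between positions -86 and -43, and in the gamma cluster GCGCCGCTG, in 9 of 19. None of these words occurred on the gene's strand in the promoters of another cluster or of the 9 non-clustered members with an entry. Among all 35116 promoters of that table, either strand held the beta word in 0.501%, the alpha word in 0.105% and the gamma word in 1.28%. The words were picked from these promoters after seeing them, and a match is a description of the letters only.

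The following windows run from 120 bases before to 20 bases after the start site, on the plus strand of GRCh38.p14, with the beta or alpha word in capitals. They were chosen because the genes differ in the direction of their values below. Of the beta genes, *PCDHB3* (chr5:141100353-141100492), *PCDHB16* (chr5:141182267-141182406) and *PCDHB9* (chr5:141187041-141187180) had lower values in the OE libraries and *PCDHB15* (chr5:141245275-141245414) had higher ones. *PCDHB1* (chr5:141051254-141051393), the beta gene without the word, is shown as the exception.
*PCDHB3*: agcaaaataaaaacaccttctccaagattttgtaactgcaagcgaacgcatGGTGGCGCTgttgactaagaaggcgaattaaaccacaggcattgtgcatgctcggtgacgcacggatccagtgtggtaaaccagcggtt
*PCDHB16*: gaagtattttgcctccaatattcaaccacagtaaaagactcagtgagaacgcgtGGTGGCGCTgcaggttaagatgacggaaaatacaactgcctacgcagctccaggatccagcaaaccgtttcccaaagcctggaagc
*PCDHB9*: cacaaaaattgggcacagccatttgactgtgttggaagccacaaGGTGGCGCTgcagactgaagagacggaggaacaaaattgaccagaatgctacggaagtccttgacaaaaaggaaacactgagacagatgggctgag
*PCDHB15*: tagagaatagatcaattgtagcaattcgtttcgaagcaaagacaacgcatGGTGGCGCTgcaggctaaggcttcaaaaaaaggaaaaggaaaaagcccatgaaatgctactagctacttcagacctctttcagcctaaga
*PCDHB1*: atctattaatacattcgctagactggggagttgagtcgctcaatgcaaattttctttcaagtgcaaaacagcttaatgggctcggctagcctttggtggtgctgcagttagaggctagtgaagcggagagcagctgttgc

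In the alpha cluster the 2 C-type genes *PCDHAC1* (chr5:140926179-140926318) and *PCDHAC2* (chr5:140966356-140966495) are shown beside *PCDHA4* (chr5:140806948-140807087) and *PCDHA6* (chr5:140827840-140827979). The alpha word is present in *PCDHA4* and *PCDHA6* and not in the windows of the C-type genes, which are the last variable exons of the array. It is also absent from the promoters of *PCDHA9* and *PCDHA11*, which are not C-type genes.
*PCDHA4*: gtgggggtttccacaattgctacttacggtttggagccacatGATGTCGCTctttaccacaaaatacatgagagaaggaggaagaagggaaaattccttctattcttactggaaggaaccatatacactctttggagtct
*PCDHA6*: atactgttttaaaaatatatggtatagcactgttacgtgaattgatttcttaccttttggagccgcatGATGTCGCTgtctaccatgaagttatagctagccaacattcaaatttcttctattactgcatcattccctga
*PCDHAC1*: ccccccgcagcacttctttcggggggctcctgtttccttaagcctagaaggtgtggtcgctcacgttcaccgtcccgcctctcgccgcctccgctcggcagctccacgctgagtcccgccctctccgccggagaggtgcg
*PCDHAC2*: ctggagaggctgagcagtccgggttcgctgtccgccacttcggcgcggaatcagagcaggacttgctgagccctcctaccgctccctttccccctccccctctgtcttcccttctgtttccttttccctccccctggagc

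Shared exons limit what a gene-level value means in these arrays. In the annotation for GRCh37, the build of the files, the alpha constant exons lie at chr5:140358534-140358592, chr5:140362060-140362148 and chr5:140389212-140391932, and the gamma constant exons at chr5:140874374-140874432, chr5:140884960-140885048 and chr5:140890514-140892542. The transcript with the most counts contained constant exons in 19 of 21 gamma genes and in 6 of the 13 alpha genes whose transcript was matched. Of all stretches of 100 bases of that transcript, a median of 44.7% in the gamma cluster, 22.3% in the alpha cluster and 5.68% in the beta cluster occurred also in another member, and 0% in the non-clustered genes. Some genes with constant exons still held 0 counts in a library, so the reads of these exons were not given in full to every gene, and how they were divided is not given in the sources used here. Values of single alpha and gamma genes are uncertain for this reason. The sum over a cluster would be free of that division only if each read was counted once, which the sources used here do not give. In addition, 21 members have another annotated gene on their exons, and since the use of strand is not given, reads of the 2 genes cannot be told apart there. They include *PCDHB3*, *PCDHB8*, *PCDHB9*, *PCDHB15*, *PCDHAC2* and *PCDH17*, described below. *PCDHA4*, *PCDHA5* and *PCDHB16* had no matched transcript and could not be checked for this.

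Library totals ranged from 23785164 to 28307591 counts, and levels are given as CPM, which divide a count by its TMM-adjusted library total. The overexpressed *RP5-998N21.4* had 32 and 33 counts in the control libraries against 2407 and 2808 in OE. Of the 20528 genes that passed edgeR's filter on low counts, 58 were members. *PCDHA10*, *PCDHA13*, *PCDHB1*, *PCDH8* and *PCDH19* were not tested, with at most 10 counts in any library. The filter asks for about 10 counts in at least 2 libraries. *PCDHA6*, *PCDH15* and *PCDH20* reached this in the OE libraries and in neither control library, so they could pass only by being higher in OE, and no p-value is given for them. *PCDHA6*, at 0 counts in both control libraries, was compared with a floor of 3 counts per library, which covers counting error only.

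At the thresholds of the study (adjusted p below 0.01, log2 fold change beyond 0.5 in either direction), edgeR's quasi-likelihood test called 0 of 58 members and 0% of all tested genes. At an unadjusted p under 0.05, 8 members were lower in OE (13.8%, against a background of 10.7% of all tested genes) and 6 were higher (10.3%, background 10.1%), or 5 without *PCDHA6*. DESeq2 called 5 members lower (8.62%, background 4.42%) and 5 higher (8.62%, background 4.35%) at the study's thresholds (4 higher without *PCDHA6*), and limma-voom called 0. The 2 OE libraries lay below both control libraries in 18 members (31.0%, background 27.6%) and above both in 17 (29.3%, background 27.8%). Without *PCDHA6*, *PCDH15* and *PCDH20*, 18 of 55 members lay below (32.7%) and 14 above (25.5%), against 27.4% and 26.9% of all genes left when those that passed the filter through 1 condition alone are taken out. An exact two-sided permutation test of 2 libraries against 2 cannot give a p below 0.333, so the single genes rest on the model fitted across all genes. *PCDH1* was the 1 member with an adjusted p below 0.05 and a log2 fold change beyond 0.5 in either direction, a rule that 0.594% of all tested genes passed.

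**Figure D1:**
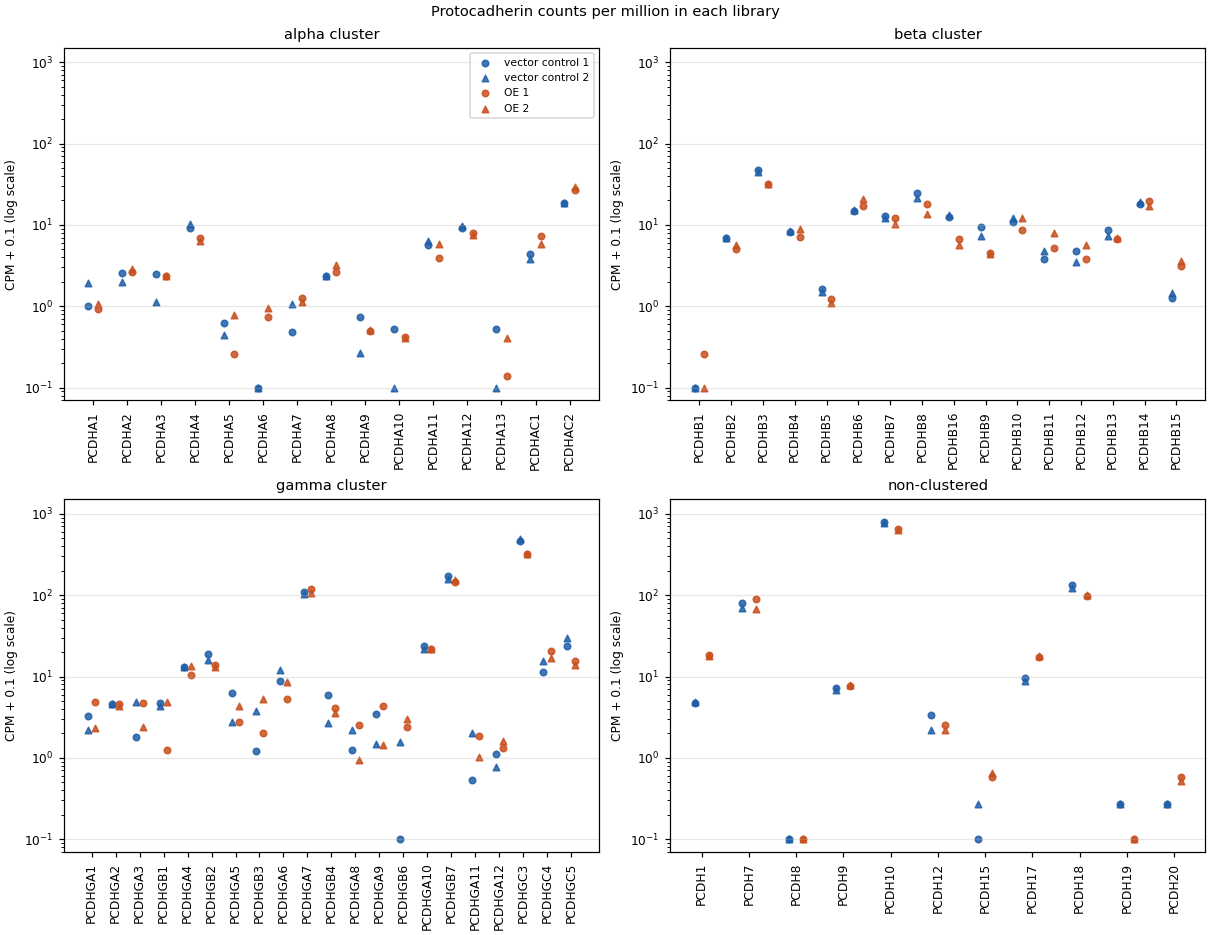
Level of each of the 63 protocadherins in the 4 libraries, as CPM + 0.1 on a log scale, with one panel for each cluster in chromosomal order and one for the non-clustered genes. Blue points are vector control and orange points OE libraries, circles replicate 1 and triangles replicate 2. *PCDH10* and *PCDHGC3* lie highest in every library, and most other members lie below 30 CPM.

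Per length of the main transcript, *PCDHGC3* had the highest mean level in the control (99.8 CPM per kilobase, against 91.8 for *PCDH10*) and *PCDH10* in OE (75.8, against 67.9 for *PCDHGC3*). In both conditions they were followed by *PCDHGB7* (34.5 CPM per kilobase in the control and 31.1 in OE), *PCDHGA7* (22.4 and 23.7) and *PCDH18* (21.6 and 16.7). *PCDHB3* came next in the control at 13.8 CPM per kilobase, ahead of *PCDH7* at 11.5, and the order of these genes was the other way in OE, at 9.50 and 12.4. The SK-N-SH libraries thus held one C-type gamma gene and one non-clustered gene above all other members with a matched transcript. All members together took from 0.182% to 0.21% of the counts of a library.

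The gamma cluster held most of the clustered counts and was lower in OE. Its summed level was 876 and 889 CPM in the vector control and 705 and 706 CPM in OE, so the conditions did not overlap. The mean was 883 ± 8.95 CPM (SD, n = 2) in the control and 706 ± 0.748 CPM (SD, n = 2) in OE, which is a log2 ratio of -0.32 on the CPM scale. This sum was not tested. Without *PCDHGC3* the sum of the other gamma genes was 416 and 399 CPM in the control and 384 and 382 CPM in OE, a log2 ratio of -0.09. By the gene-level counts, most of the lower sum lay in *PCDHGC3*. This depends on how reads of the constant exons were divided among the gamma genes.

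*PCDHGC3* (ENSG00000240184.2), a C-type gamma protocadherin that is broadly expressed across neurons and other cells, had 10714 and 11504 counts in the control libraries against 8059 and 9388 in OE. Its level was 460 and 490 CPM in the control and 321 and 325 CPM in OE, with both OE libraries below both controls. The log2 fold change was -0.56 (standard error 0.06, unadjusted p = 0.000929, edgeR adjusted p = 0.0659). Its share of the gamma counts went from 52.5% and 55.1% in the control to 45.5% and 45.9% in OE. This share is a ratio within each library and does not depend on the scaling, although it does depend on how reads of the constant exons were divided.

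*PCDHGC5* (ENSG00000240764.2), whose protein is known to bind GABA-A receptor subunits, was lower as well, with 557 and 694 counts against 387 and 394. Its level was 23.9 and 29.5 CPM in the control and 15.4 and 13.6 CPM in OE, a log2 fold change of -0.88 (standard error 0.16, unadjusted p = 0.00706, edgeR adjusted p = 0.113). *PCDHGC4* (ENSG00000242419.1), the gamma isoform known for its part in the survival of neurons, stood at 11.4 and 15.3 CPM in the control and 20.3 and 16.8 CPM in OE. The conditions did not overlap, but the difference did not pass the test (log2 fold change 0.47, standard error 0.21, unadjusted p = 0.0959, edgeR adjusted p = 0.318). Without replicate 2 of the control its log2 fold change was 0.70 with an unadjusted p of 0.0495, and without replicate 1 of the control it was 0.27 with an unadjusted p of 0.284. The 3 C-type gamma genes, which share all constant exons, thus did not have values in 1 direction.

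The remaining 18 gamma genes, of the A and B types, held 0 members with an unadjusted p under 0.05 in either direction (background 10.7% lower and 10.1% higher), with a median log2 fold change of -0.02 and a range from -0.60 to 1.83. *PCDHGB7* (ENSG00000254122.1) stood at 174 and 156 CPM in the control and 144 and 154 CPM in OE (log2 fold change -0.15, standard error 0.09, edgeR adjusted p = 0.444). *PCDHGA7* (ENSG00000253537.1) stood at 109 and 104 CPM in the control and 118 and 107 CPM in OE (log2 fold change 0.08, standard error 0.09, edgeR adjusted p = 0.678). Both are adhesion proteins that differ from *PCDHGC3* in their extracellular cadherin repeats. *PCDHGA10* (ENSG00000253846.1) stood between 21.7 and 23.96 CPM in all 4 libraries, with overlapping conditions. Over all 21 gamma genes the median log2 fold change was -0.04, against 0.01 over all tested genes, and it was -0.13 without replicate 2 of the control and -0.10 without replicate 1 of OE.

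*PCDHGB6* (ENSG00000253305.1) showed how far single gamma genes can vary within a condition. It had 0 and 34 counts in the control libraries against 58 and 83 in OE, and its fitted log2 fold change of 1.83 had a standard error of 1.39 (unadjusted p = 0.261, edgeR adjusted p = 0.519). Without replicate 1 of the control, the library at 0 counts, the log2 fold change was 0.83 with an unadjusted p of 0.0901. Without replicate 2 of the control only the library at 0 counts remains, and the fitted value is then no measure of size. In 10 of the 21 tested gamma genes the libraries of a condition differed by more than 2-fold in CPM. This held for 5 of 13 tested alpha genes, 0 of 15 beta genes and 19.2% of all tested genes. *PCDHGB1*, for example, had 108 and 99 counts in the control and 29 and 138 in OE, and *PCDHGA9* had 79 and 32 counts against 107 and 39. These examples were chosen after their values were seen.

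**Figure D2:**
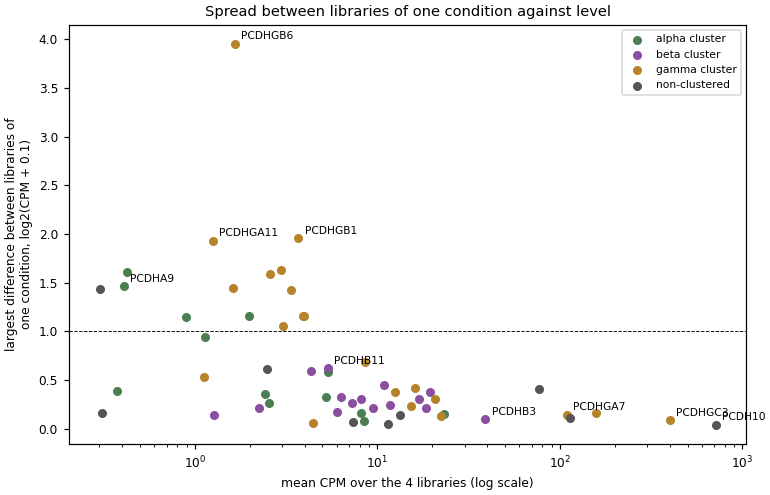
Largest difference between the 2 libraries of one condition, as log2(CPM + 0.1), against the mean CPM over the 4 libraries (log scale), for the 58 tested protocadherins coloured by cluster. The dashed line marks a difference of 1. Points above it are alpha, gamma and non-clustered genes below 4 CPM, and no beta gene lies above it.

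Over the 58 tested members, 16 had such a difference of more than 2-fold, at mean levels from 0.3 to 3.95 CPM. Of the 20 members above 10 CPM, 0 had one. The tested beta genes, which lack constant exons, reached down to a mean of 1.27 CPM without it. Only *PCDHB5* and *PCDHB15* of them had means below 3.95 CPM. Among the genes with such a difference, the main transcripts of *PCDHA1*, *PCDHA3*, *PCDHA7*, *PCDHA9* and *PCDHGA1* hold no constant exons. Those of the other gamma genes with it hold them. The part of shared exons and of low counts in this spread was not tested.

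The beta cluster was lower in sum and mixed by gene. Its summed level was 186 and 178 CPM in the vector control and 149 and 155 CPM in OE, a mean of 182 ± 5.33 CPM (SD, n = 2) against 152 ± 3.76 CPM (SD, n = 2) and a log2 ratio of -0.26. The conditions did not overlap. Without *PCDHB3*, its member with the highest level, the sum was 138 and 133 CPM in the control and 118 and 122 CPM in OE, a log2 ratio of -0.18. Of 15 tested beta genes, 3 were lower (background 10.7% of all tested genes) and 1 was higher (background 10.1%) at an unadjusted p under 0.05, and 11 were not past it. The OE libraries lay below both controls in 8 beta genes (background 27.6%) and above both in 3 (background 27.8%). The median log2 fold change was -0.18, against 0.01 over all tested genes.

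*PCDHB16* (ENSG00000196963.2), a beta protocadherin with one of the windows printed above, had 291 and 307 counts in the control libraries and 164 and 163 in OE. This was 12.5 and 13.1 CPM against 6.54 and 5.64 CPM, a log2 fold change of -1.07 (standard error 0.15, unadjusted p = 0.0026, edgeR adjusted p = 0.0832). *PCDHB9* (ENSG00000177839.4), the next gene along the chromosome, had 215 and 172 counts against 112 and 125, which is 9.23 and 7.32 CPM against 4.46 and 4.32 CPM. Its log2 fold change was -0.91 (standard error 0.19, unadjusted p = 0.00966, edgeR adjusted p = 0.126). In both genes the conditions did not overlap.

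*PCDHB8* (ENSG00000120322.2), the neighbour on the other side of *PCDHB16*, stood at 24.7 and 21.2 CPM in the control and 17.9 and 13.7 CPM in OE. It had a log2 fold change of -0.54 and did not pass the test (standard error 0.19, unadjusted p = 0.0512, edgeR adjusted p = 0.242). This gene lay near the threshold, and its unadjusted p under the alternatives ranged from 0.0130 with DESeq2 to 0.177 without replicate 1 of the control. It was also under 0.05 with limma-voom (0.0427), with a minimum of 1 count in total (0.0467), with the replicate block (0.0322) and without replicate 1 of OE (0.0313). In GRCh37 these 3 neighbours lie at chr5:140557371-140560120 (*PCDHB8*), chr5:140561962-140565801 (*PCDHB16*) and chr5:140566701-140571114 (*PCDHB9*). Their OE libraries all lay below the controls. Of the stretches of 100 bases, 25.3% in the *PCDHB8* transcript and 11.2% in that of *PCDHB9* occurred also in some other member, and the *PCDHB16* transcript was not matched.

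*PCDHB3* (ENSG00000113205.2), the beta gene with the highest level, had 1114 and 1051 counts in the control libraries and 795 and 928 in OE. Its level was 47.8 and 44.7 CPM against 31.7 and 32.1 CPM (log2 fold change -0.54, standard error 0.09, unadjusted p = 0.0054, edgeR adjusted p = 0.103). *PCDHB15* (ENSG00000113248.3), the last beta gene of the array, had 27 and 32 counts against 76 and 100. Its level was 1.16 and 1.36 CPM in the control and 3.03 and 3.46 CPM in OE, a log2 fold change of 1.36 (standard error 0.23, unadjusted p = 0.00466, edgeR adjusted p = 0.0987). The beta word is present in the promoters of *PCDHB3*, *PCDHB9*, *PCDHB16* and *PCDHB15*, which had values in opposite directions.

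Of the other beta genes with high levels, *PCDHB6* (ENSG00000113211.3) stood at 14.9 and 15.2 CPM in the control and 16.9 and 20.9 CPM in OE (edgeR adjusted p = 0.332). *PCDHB14* (ENSG00000120327.4) stood at 18.04 and 18.9 CPM against 19.6 and 16.9 CPM (edgeR adjusted p = 0.955). *PCDHB10* (ENSG00000120324.4) stood at 10.9 and 12.1 CPM against 8.69 and 11.9 CPM (edgeR adjusted p = 0.724). Only *PCDHB6* of these 3 had both OE libraries above both controls. *PCDHB7* (ENSG00000113212.4) stood at 12.8 and 12.2 CPM in the control and 11.96 and 10.1 CPM in OE, without overlap (edgeR adjusted p = 0.554). The 6 tested beta genes not described singly had means from 1.27 to 8.09 CPM and log2 fold changes from -0.48 to 0.61, with no unadjusted p below 0.0711.

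**Figure D3:**
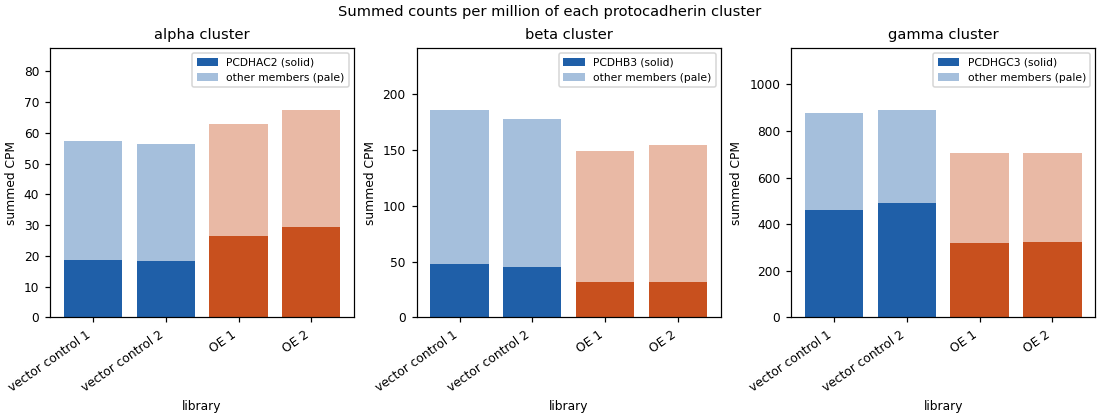
Summed CPM of the alpha, beta and gamma clusters in each of the 4 libraries, with axes starting at 0 and scaled separately. Blue bars are vector control and orange bars OE libraries, and the solid part of each bar is the member with the highest level (*PCDHAC2*, *PCDHB3* or *PCDHGC3*). The alpha sums are higher in both OE libraries, from 63.0 to 67.4 CPM, and the beta and gamma sums are lower.

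The alpha cluster had the lowest sum, which was higher in OE. Its summed level was 57.3 and 56.5 CPM in the vector control and 63.0 and 67.4 CPM in OE, a mean of 56.9 ± 0.545 CPM (SD, n = 2) against 65.2 ± 3.09 CPM (SD, n = 2) and a log2 ratio of 0.20. Without *PCDHAC2* the sum of the other alpha genes was 38.6 and 38.2 CPM in the control and 36.5 and 37.9 CPM in OE, a log2 ratio of -0.05. This value, too, depends on how reads of the constant exons were divided. Of 13 tested alpha genes, 1 was lower (background 10.7%) and 3 were higher (background 10.1%) at an unadjusted p under 0.05 (2 higher without *PCDHA6*). The median log2 fold change was 0.27, or 0.14 without *PCDHA6*, and it was -0.11 without replicate 2 of the control.

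The C-type genes carried much of the alpha counts. *PCDHAC2* (ENSG00000243232.3), known for its part in the spacing of serotonergic axons, had 436 and 430 counts in the control libraries and 665 and 855 in OE. Its level was 18.7 and 18.3 CPM against 26.5 and 29.6 CPM, a log2 fold change of 0.60 (standard error 0.11, unadjusted p = 0.00749, edgeR adjusted p = 0.115). Its share of the alpha counts went from 32.7% and 32.4% to 42.0% and 43.8%. *PCDHAC1* (ENSG00000248383.3), the other C-type gene, had 101 and 88 counts against 180 and 165, which is 4.34 and 3.75 CPM against 7.17 and 5.70 CPM. Its log2 fold change was 0.67 (standard error 0.21, unadjusted p = 0.0342, edgeR adjusted p = 0.205), and the unadjusted p was above 0.05 without replicate 1 of OE (0.127), without replicate 1 of the control (0.0696) and without replicate 2 of the control (0.132).

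*PCDHA6* (ENSG00000081842.13) had 0 counts in both control libraries and 16 and 25 counts in OE. Against a floor of 3 counts per library, its CPM was at least 5.86-fold higher in OE. The gene passed the filter on low counts only through the OE libraries, so its fitted value and p-value carry no weight as a test. All of these counts lay on 1 transcript, of which 58% of the stretches of 100 bases occurred also in another member. With *PCDHA6* set to this bound, the median log2 fold change of the alpha genes was 0.27 as well.

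*PCDHA4* (ENSG00000204967.6) was the alpha gene lower at an unadjusted p under 0.05, at 212 and 239 counts in the control libraries and 173 and 183 in OE. Its level was 9.10 and 10.2 CPM against 6.89 and 6.33 CPM (log2 fold change -0.54, standard error 0.15, unadjusted p = 0.0245, edgeR adjusted p = 0.180). The unadjusted p ranged up to 0.101 when a library was left out, and it was above 0.05 without replicate 2 of the control, replicate 1 of OE or replicate 2 of OE, and with the replicate block (0.0607). *PCDHA12* (ENSG00000251664.2) stood at 9.06 and 9.58 CPM against 7.77 and 7.36 CPM, without overlap (edgeR adjusted p = 0.316). *PCDHA11* (ENSG00000249158.2) stood at 5.58 and 6.21 CPM against 3.83 and 5.77 CPM, with overlap (edgeR adjusted p = 0.588). *PCDHA8* (ENSG00000204962.4) stood at 2.28 and 2.26 CPM against 2.55 and 3.08 CPM (edgeR adjusted p = 0.470). The 6 tested alpha genes not described singly held from 4 to 80 counts per library, with log2 fold changes from -0.59 to 0.68.

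Outside the clusters, 2 of 9 tested genes were lower (background 10.7%) and 2 were higher (background 10.1%) at an unadjusted p under 0.05. *PCDH1* (ENSG00000156453.9), a protocadherin of the delta-1 group known from airway epithelium and as a receptor of New World hantaviruses, had 107 and 112 counts in the control libraries and 464 and 521 in OE. Its level was 4.595 and 4.77 CPM against 18.5 and 18.01 CPM, so the OE mean was 3.90 times that of the control. The log2 fold change was 1.96 (standard error 0.13, unadjusted p = 0.000148, edgeR adjusted p = 0.0386). In GRCh37 the gene lies at chr5:141232655-141258811 on the minus strand, beyond the gamma array. All 107 counts of replicate 1 of the control lay on another transcript than most counts of the other libraries. With the single transcript of highest mean count, the log2 fold change was 2.89 with an unadjusted p of 0.323, and the other alternatives kept the unadjusted p under 0.05.

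Of the other delta-1 genes, *PCDH7* (ENSG00000169851.11), an axonal adhesion protein, stood at 79.2 and 68.6 CPM in the control and 90.8 and 68.2 CPM in OE, with overlap (log2 fold change 0.11, standard error 0.19, edgeR adjusted p = 0.791). Replicate 1 of OE held 509 counts on a transcript that had 0 counts in the other 3 libraries, and without this library the log2 fold change was -0.11. *PCDH9* (ENSG00000184226.10), an adhesion protein of forebrain neurons, stood at 7.17 and 6.81 CPM against 7.53 and 7.74 CPM (edgeR adjusted p = 0.652).

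The delta-2 group held the member with the most counts. *PCDH10* (ENSG00000138650.7), whose cytoplasmic tail is known to recruit the WAVE complex that drives actin branching, had 18410 and 18122 counts in the control libraries and 16413 and 18399 in OE. Scaled to library size this was 791 and 771 CPM against 654 and 636 CPM, with both OE libraries below both controls. The log2 fold change was -0.28 (standard error 0.05, unadjusted p = 0.00443, edgeR adjusted p = 0.0980). *PCDH18* (ENSG00000189184.7), of the same group, stood at 133 and 123 CPM against 96.9 and 101 CPM (log2 fold change -0.37, standard error 0.08, unadjusted p = 0.0133, edgeR adjusted p = 0.141), and its unadjusted p was 0.0539 without replicate 1 of OE.

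*PCDH17* (ENSG00000118946.7), also of the delta-2 group and known for its part in presynaptic assembly, had 221 and 202 counts in the control and 430 and 512 in OE. Its level was 9.49 and 8.60 CPM against 17.1 and 17.7 CPM, a log2 fold change of 0.95 (standard error 0.13, unadjusted p = 0.00226, edgeR adjusted p = 0.0797). *PCDH8* was listed with 0 counts in all 4 libraries, and *PCDH19* had 4 and 4 counts in the control and 0 and 0 in OE, at the limit of detection. The delta-2 genes thus had values in both directions. Of the remaining tested genes, *PCDH12*, known from endothelium, had 77 and 50 counts against 61 and 61. *PCDH15*, a protein of hair cell tip links, had 0 and 4 against 12 and 16, and *PCDH20* had 4 and 4 against 12 and 12. The last 2 passed the filter only through their OE libraries.

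The 14 members with an unadjusted p under 0.05 were *PCDHA6* and those given above with such a p: 4 alpha, 4 beta, 2 gamma and 4 non-clustered genes. The alpha count includes *PCDHA6*, whose p-value carries no weight as a test. DESeq2 called 10 members at the study's thresholds, 2 alpha genes higher (1 without *PCDHA6*), 3 beta genes lower and 1 higher, 2 gamma genes lower and 2 non-clustered genes higher, against a background of 4.42% of all tested genes lower and 4.35% higher. The DESeq2 adjusted p was 1.9e-21 for *PCDHGC3*, 2.19e-31 for *PCDH1*, 8.67e-09 for *PCDH17*, 4.28e-08 for *PCDHB16* and 1.33e-06 for *PCDHB3*. For *PCDHGC5* it was 4.67e-05, for *PCDHAC2* 8.53e-05, for *PCDHB15* 0.000339 and for *PCDHB9* 0.00103. Over all alternatives the highest adjusted p of these 10 genes lay between 0.296 and 0.644, and the lowest was that of DESeq2 in each. The log2 fold change from each tool was -0.56 for *PCDHGC3* and 1.96 for *PCDH1*.

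Among 26 tested genes of promoter choice and insulation, 5 were lower (background 10.7%) and 4 higher (background 10.1%) at an unadjusted p under 0.05, with a median log2 fold change of -0.06 against 0.01 over all tested genes. The same backgrounds hold for the lists that follow, and a list was not tested as a whole. *CTCF*, the insulator protein that binds protocadherin promoters, stood at 77.3 and 80.3 CPM in the control and 70.2 and 77.5 CPM in OE, with overlap (log2 fold change -0.09, standard error 0.10, edgeR adjusted p = 0.638). *SMCHD1*, a chromatin protein known to silence clustered protocadherins, stood at 19.4 and 17.3 CPM against 56.9 and 60.7 CPM (log2 fold change 1.68, standard error 0.11, edgeR adjusted p = 0.0415). *UHRF1*, which recruits the maintenance DNA methyltransferase, stood at 60.8 and 56.8 CPM against 35.5 and 32.1 CPM (log2 fold change -0.80, standard error 0.11, edgeR adjusted p = 0.0792). *TET3*, an enzyme that oxidises methylcytosine, stood at 128 and 108 CPM against 180 and 175 CPM (edgeR adjusted p = 0.115). Whether these genes bear on the protocadherin values was not tested.

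Of 23 tested cleavage and signalling partners, 4 were lower (background 10.7%) and 2 higher (background 10.1%) at an unadjusted p under 0.05. *ADAM10*, the metalloprotease that sheds gamma protocadherins, stood at 177 and 162 CPM against 119 and 121 CPM (log2 fold change -0.50, standard error 0.08, edgeR adjusted p = 0.0970). *NCKAP1*, a subunit of the WAVE complex, stood at 35.4 and 37.2 CPM against 24.4 and 26.9 CPM (log2 fold change -0.50), and *WASF2*, another subunit, at 207 and 205 CPM against 247 and 251 CPM (log2 fold change 0.27). Both had an edgeR adjusted p of 0.130. The list's median log2 fold change was 0.01.

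Of 12 tested classical cadherins and catenins, 5 were lower (background 10.7%) and 2 higher (background 10.1%) at an unadjusted p under 0.05, with a median log2 fold change of -0.33. *CDH11*, a cadherin of mesenchymal cells, stood at 386 and 409 CPM against 257 and 266 CPM (log2 fold change -0.61, standard error 0.06, edgeR adjusted p = 0.0649). The catenins *JUP* (50.4 and 51.1 CPM against 34.6 and 36.9) and *CTNNB1* (133 and 125 CPM against 101 and 96.7) had log2 fold changes of -0.51 and -0.38. Of 16 tested giant and other cadherins, 2 were lower (background 10.7%) and 4 higher (background 10.1%) at an unadjusted p under 0.05. Without *CDHR1* and *CDH23*, which passed the filter only through their OE libraries, 2 were higher. *DCHS1*, a giant cadherin of planar polarity, stood at 45.4 and 41.8 CPM against 73.4 and 77.6 CPM (log2 fold change 0.79, edgeR adjusted p = 0.0764). *FAT1*, of the same superfamily, stood at 135 and 120 CPM against 100 and 89.2 CPM (log2 fold change -0.43, edgeR adjusted p = 0.171). *CDHR1*, a photoreceptor cadherin, had 5 and 5 counts in the control against 25 and 36 in OE.

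Markers of neuroblastoma cell state held 0 genes with an edgeR adjusted p under 0.05. Of 5 tested adrenergic markers, all had both OE libraries above both controls (background 27.8%) and 3 were higher at an unadjusted p under 0.05 (background 10.1%), with summed levels of 327 and 395 CPM in the control and 596 and 564 CPM in OE. *DBH*, the enzyme that makes noradrenaline, stood at 22.7 and 23.5 CPM against 41.5 and 40.2 CPM (edgeR adjusted p = 0.0707). The transcription factors *GATA3* (51.4 and 39.4 CPM against 88.7 and 88.6) and *HAND2* (222 and 239 CPM against 333 and 302) had edgeR adjusted p-values of 0.101 and 0.110. *TH* was at 0 counts in all libraries. Of 8 mesenchymal markers, 4 were lower at an unadjusted p under 0.05 (background 10.7%) and 0 higher (background 10.1%). Both OE libraries lay below both controls in 6 of the 8 (background 27.6%) and above both in 1 (background 27.8%). The summed levels of the 8 markers overlapped, at 2471 and 2275 CPM in the control and 2762 and 1802 CPM in OE. *VIM*, an intermediate filament gene, stood at 348 and 350 CPM in the control and 1254 and 376 CPM in OE, above both controls in each OE library but with an edgeR adjusted p of 0.367. *FN1*, which encodes fibronectin, stood at 386 and 332 CPM against 362 and 337 CPM, with overlap (log2 fold change -0.04, edgeR adjusted p = 0.866). *CD44* stood at 613 and 565 CPM against 354 and 365 CPM, *SNAI2* at 71.0 and 67.5 CPM against 43.8 and 42.6 CPM, and *YAP1* at 331 and 315 CPM against 270 and 267 CPM.

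The part of these markers in the protocadherin values was not tested. In a bulk sample, fewer cells of a kind and less RNA per cell cannot be told apart. Of the 8 markers of other cell types, 7 were in the table, 0 had a mean above 1 CPM, and *ALB*, *MOG*, *KRT14* and *INS* were at 0 counts in all libraries. Their summed level was from 1.42 to 2.04 CPM in the control and from 0.717 to 0.968 CPM in OE, most of it from *EPCAM* (15 and 30 counts against 12 and 8) and *GFAP* (18 and 18 counts against 6 and 16).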

How the data were processed

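The 4 RNA-seq libraries analysed here were 2 of the vector control and 2 of *RP5-998N21.4* OE, grouped by the treatment label. The authors trimmed the reads with Trimmomatic, mapped the clean reads to hg19 by Bowtie2, and the table they deposited holds unnormalized whole-number counts, 1 row a transcript. The submitters' processing notes also name Picard 2.21.6 and StringTie 2.1.6, with Bowtie2 2.0.4. The counting step, annotation release and use of strand are not given in the sources used here.

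Counts were summed per gene. Genes kept by filterByExpr (20528) were scaled by TMM and tested with the quasi-likelihood test of edgeR 4.0.16 (R 4.3.3), 2 libraries against 2 without covariates, with Benjamini-Hochberg adjustment over all of them. The paper names DESeq2, which was run as an alternative (DESeq2 1.42.0), as was limma-voom (limma 3.58.1). The scripts were tested on simulated data. Pseudogenes, exons and transcript lengths were read from GENCODE lifted to GRCh37. It matched 127 of 140 member transcripts, and none was found for the main transcripts of *PCDHA4*, *PCDHA5* and *PCDHB16*, so no level per length or share of shared stretches is given for them. Promoters came from RefSeq (GRCh38.p14).

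The members, gene lists and alternatives were chosen with earlier results of these data known. Named with values were, in each cluster and among the non-clustered genes, the 6 members with the highest mean CPM, every tested member with an unadjusted p under 0.05 or called by DESeq2, every member with 0 counts in a library whose group mean exceeded 10 counts, and of each other list the 3 genes with the smallest p plus *CTCF*. Genes named beyond this rule were *PCDHA1*, *PCDHA3*, *PCDHA7*, *PCDHA9*, *PCDHB5*, *PCDHGA1*, *PCDHGB1*, *PCDHGA9*, *PCDH12*, *PCDHGA6*, *VIM*, *FN1* and *CDH23*. Others were the relatives and markers of other cell types, members at or near 0 counts and those at the edges of a range. All of these were chosen after their values were seen. Alternatives were RLE and upper-quartile scaling, both other tools, filters at 1 count in total or at a mean of 10 counts, the omission of each library, a replicate block and the transcript with the highest mean. The non-legacy setting of edgeR, the counts without members that passed the filter through 1 condition alone and the cluster sums without their highest member were added after the values were seen. Some results are not reported here. Figures were drawn with matplotlib 3.10.9.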

Additional observations from a re-analysis of the deposited data

How the results depend on the processing

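The count of 0 called protocadherins at the study's thresholds was 10 with DESeq2 and 0 with each other alternative. The number lower at an unadjusted p under 0.05 (8) and the number higher (6) stayed within 1.5 times under every alternative run, with 7 to 8 lower and 5 to 8 higher when a library was left out, where the shares of all tested genes were 7.19% to 9.55% lower and 5.86% to 8.91% higher. Without *PCDHA6*, *PCDH15* and *PCDH20*, 5 were higher, or 4 with the highest transcript of each gene and 6 without replicate 2 of the control, of which 1 is *PCDHGB6* against its library at 0 counts. The median log2 fold change of the alpha cluster (0.27) ranged from -0.11, without replicate 2 of the control, to 0.44 when a library was left out. That of the gamma cluster (-0.04) ranged from -0.13 to -0.04, and was -0.0047 with upper-quartile scaling. That of the non-clustered genes (0.13) ranged from 0.086 to 0.30, and was -0.068 with the highest transcript of each gene. It was 0.11 without *PCDH15* and *PCDH20*, which passed the filter only through their OE libraries. The summed gamma log2 ratio (-0.32) was -0.28 with upper-quartile scaling, which moved the median of all genes to 0.05. The cause of these shifts was not tested. Fold changes near 0 changed sign: when a library was left out, *PCDHB10* ranged from -0.40 to 0.054 (without replicate 1 of OE), *PCDHB14* from -0.13 to 0.084 (positive without replicate 2 of the control, at 0.012, or of OE) and *PCDH7* from -0.11 (without replicate 1 of OE) to 0.30. *PCDHB14* was at 0.021 with upper-quartile scaling and *PCDH7* at -0.068 with the highest transcript. The tools and the block do not enter the cluster sums.

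Labels give the same replicate numbers to both conditions without saying that they pair samples, and the deviations of same-numbered libraries had a correlation of -0.02 over tested genes. With a replicate block, 9 protocadherins were lower (background 7.69%) and 6 higher (background 7.22%, and 5 without *PCDHA6*) at an unadjusted p under 0.05, 0 were called, *PCDHA4* was no longer under 0.05 (0.0607), *PCDHB8* (0.0322) and *PCDHGA6* were, and the medians were 0.28 (alpha), -0.19 (beta), -0.07 (gamma) and 0.13 (non-clustered). *PCDHA6* and *PCDHGB6* had control libraries at 0 counts, and the part of sequencing depth in their values was not tested.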

Other observations

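Relatives outside the symbol rule or left out as pseudogenes held few counts. *PCDHB18* had 52 and 37 counts in the control libraries against 71 and 67 in OE (log2 fold change 0.43, standard error 0.28, edgeR adjusted p = 0.464). *PCDHB17* had 32 and 14 counts against 13 and 41, and *PCDHB19P* had 10 and 25 against 34 and 30. *PCDHGB8P*, a pseudogene in the gamma array, had 5 and 12 counts against 12 and 0. *PCDHA14* and *PCDH11X* had 0 counts in all 4 libraries. None of the 4 with counts had an unadjusted p under 0.05.

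*PCDH9* held 160 counts of replicate 2 of the control on one transcript, which had 0 counts in the other 3 libraries, where 167, 189 and 224 counts lay on another.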
